A study of Rattus norvegicus with 15 samples.

Results

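Acp2, Ppt1 and the cathepsins are hydrolases that, with few exceptions, work inside the lysosome, the acidic organelle in which cells take apart proteins, lipids and sugars. Members were the probes whose only gene symbol in the platform annotation was Acp2, Ppt1 or Cts followed by a single letter. They numbered 13 of 3757 probes and covered 13 of 3400 named genes: Acp2, Ppt1 and 11 cathepsins. Acp2 and Ppt1 were on the list because they were among the genes whose values lay highest in cirrhotic liver relative to control liver in an earlier analysis of these same arrays, so their values in that comparison describe the choice and support nothing. The cathepsins were taken by name.

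Most of these enzymes are made as inactive precursors, tagged with mannose 6-phosphate in the Golgi, carried to the lysosome by receptors and activated there at low pH. In liver, hepatocytes and the resident macrophages (Kupffer cells) are both rich in lysosomes. Lysosomal proteases are known to be released into the surroundings in liver injury and in many tumours, where cystatins and other inhibitors restrain them.

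Liver tissue of male Fischer344 rats was measured on 15 arrays, 5 in each of 3 groups. Hepatocellular carcinoma and the noncancerous, cirrhotic liver around such tumours came from rats given the choline-deficient, L-amino acid-defined diet over 70 weeks, and control liver came from rats on basal diet over the same 70 weeks (control 1 is labelled only Fischer). No mutation, transgene or drug is named for any group. Nothing in the labels says whether samples with the same number share a rat or whether samples of a group are separate rats, so each p-value speaks of the variation among these samples, which may be technical.

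The deposited value relates each probe to its own median across all 15 arrays, as a linear ratio, so a log2 ratio of 0 is that gene's middle value here, and levels of different genes cannot be compared. For the same reason the presence of hepatocyte markers, 11 of which had a probe, could not be read as a level. The ratios stop at 0.01, a limit reached by 229 values in control 1 and 209 in cirrhotic 1, and by at most 76 in any other sample. The members held 3 such values, all in control liver: Acp2 in controls 1 and 3, and Ctsq in control 1. All values below are log2 ratios after quantile normalization over the 15 arrays unless stated otherwise. In these whole-tissue samples, fewer cells of a type and less RNA per cell cannot be told apart.

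Promoter sequence was at hand in RefSeq for 10 of the 13 genes (assembly GRCr8), and is shown here for Ctsd, the member promoter that holds the motif searched, and for Ctsl, which does not hold it; both are among the cathepsins with the highest differences in carcinoma. The regulator TFEB, which drives many lysosomal genes, is known to bind a palindrome built on CACGTG. In the 250 bases before the start, CACGTG (both strands) was found in 1 of 10 member promoters, Ctsd, against 5.59% of all 33469 promoters in the table and 4 of 21 promoters of the other lysosomal genes on the array. The longer TCACGTG, which contains it, was also found in Ctsd alone among the 10, against 2.79% of all promoters and 3 of the 21. Among the 2939 promoters of genes on the array, the shares were 7.01% for CACGTG and 3.98% for TCACGTG. In Ctsd, on chromosome 1 and the minus strand (chr1:206968822-206969071), CACGTG began 157 and 10 bases before the start, and the capitals mark every base that matches either motif. Ctsl, on chromosome 17 and the plus strand (chr17:769854-770103), held neither motif in this window.
Ctsd: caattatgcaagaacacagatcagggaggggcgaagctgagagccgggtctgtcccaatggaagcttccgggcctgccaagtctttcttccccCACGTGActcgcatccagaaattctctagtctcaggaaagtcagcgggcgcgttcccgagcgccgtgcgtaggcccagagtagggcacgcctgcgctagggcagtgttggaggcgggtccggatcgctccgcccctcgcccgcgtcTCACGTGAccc
Ctsl: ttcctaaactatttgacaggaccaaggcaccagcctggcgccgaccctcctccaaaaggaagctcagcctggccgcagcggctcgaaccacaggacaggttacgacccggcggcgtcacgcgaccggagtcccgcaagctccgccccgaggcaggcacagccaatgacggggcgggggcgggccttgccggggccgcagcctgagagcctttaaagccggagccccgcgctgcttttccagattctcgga
A match is a description of the letters, and binding was not measured.

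Cirrhotic liver was compared with control liver first, to see whether lysosomal genes were higher together outside the tumour. They were not uniformly so. Acp2 and Ppt1, chosen on this contrast, lay higher in every cirrhotic sample than in every control, and none of the 11 cathepsins did. Only 0.665% of all probes had cirrhotic liver higher without overlap, so 0 of 11 says little about the cathepsins. Of the 13 genes, 8 had a difference above 0 and 5 below 0, with a median of 0.30, against 50.7% of all probes above 0 and a median of 0.015. The 11 cathepsins had 6 above 0 and 5 below 0, and a median of 0.0067. No member passed an adjusted p of 0.05 in limma, and no probe of the table did (0% called). At an unadjusted p under 0.05 there were 2 members, Acp2 and Ppt1, both higher, against 4.02% of all probes higher and 5.62% lower. Since both were chosen on this contrast, that count is a description.

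**Figure D1:**
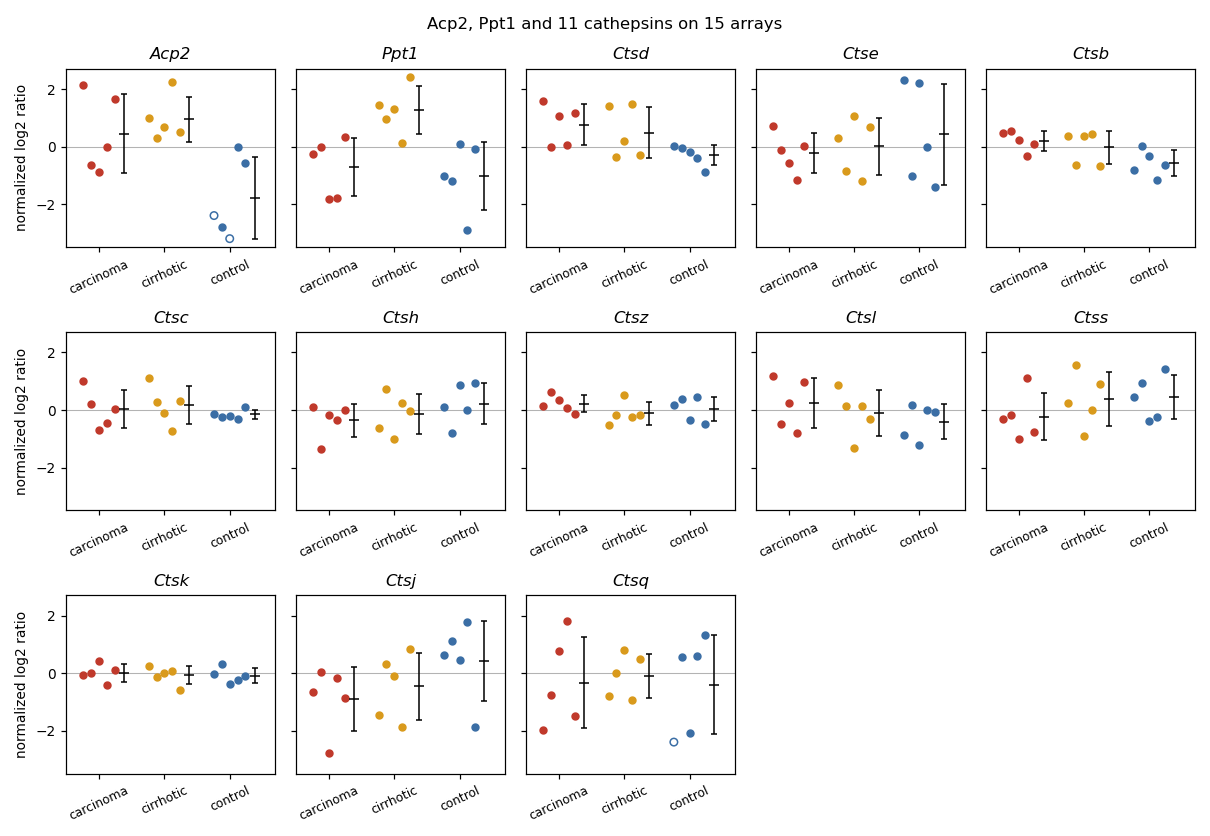
Normalized log2 ratio (vertical axis, where 0 is the gene's middle value) of each of the 13 genes in carcinoma, cirrhotic and control liver, with a point per sample in the order 1 to 5, open circles for deposited ratios at the limit of 0.01, and a bar for mean ± SD (n = 5). Acp2 and Ppt1 show all 5 cirrhotic samples above all 5 controls, while the groups overlap for the 11 cathepsins. Acp2 and Ppt1 were chosen on the contrast of cirrhotic with control liver.

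Acp2 encodes lysosomal acid phosphatase, which removes phosphate from many substrates and is sorted to the lysosome as a membrane protein. Its log2 ratio was 0.99, 0.29, 0.68, 2.26 and 0.53 in cirrhotic samples 1 to 5, against -2.39, -2.79, -3.19, -0.0020 and -0.56 in controls 1 to 5. Every cirrhotic sample was above every control, and controls 1, 2 and 3 lay far below controls 4 and 5. The mean was 0.95 ± 0.77 (SD, n = 5) over cirrhotic samples and -1.79 ± 1.42 (SD, n = 5) over controls. These differed by 2.73 (95% interval 1.31 to 4.16), or 6.65-fold, with an adjusted p of 0.307 in limma. In the deposited ratios, Acp2 was 1.14 to 4.33 in cirrhotic samples, against 0.01 in controls 1 and 3, 0.0168 in control 2, 0.613 in control 5 and 1 in control 4. With the values as deposited the difference was 4.92, so its size depends on how the lowest ratios are treated.

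Ppt1 encodes palmitoyl-protein thioesterase, which strips fatty acids from proteins on their way to breakdown and whose loss causes a neuronal storage disease in humans. Its log2 ratio was 1.47, 0.97, 1.31, 0.15 and 2.44 in cirrhotic samples 1 to 5, against -1.02, -1.21, 0.089, -2.88 and -0.094 in controls 1 to 5. Cirrhotic 4 lay just above control 3, and the other cirrhotic samples were well clear of the controls. The mean was 1.27 ± 0.83 (SD, n = 5) over cirrhotic samples and -1.02 ± 1.18 (SD, n = 5) over controls. These differed by 2.29 (1.0003 to 3.58), or 4.89-fold, with an adjusted p of 0.307 in limma. In the deposited ratios cirrhotic 4 stood at 1.10 and control 3 at 1.11, so the groups overlapped there. Groups that did not overlap, with cirrhotic liver higher, were seen for 0.665% of all probes after normalization, and with cirrhotic liver lower for 0.985%.

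Both probes lie in a stretch of the array numbering where most probes were higher in cirrhotic liver. Among the 100 probes nearest in number to Acp2, 88% had a difference above 0, with a median of 0.88, and Acp2 was above 99% of them. Among the 100 nearest to Ppt1, 89% were above 0, with a median of 0.74, and Ppt1 was above 97% of them. Once each array's running median over the numbering was subtracted, the difference was 1.97 (0.66 to 3.29) for Acp2 and 1.69 (0.64 to 2.73) for Ppt1, and for both the groups overlapped. Other lysosomal genes share the stretch: of 38 lysosomal genes measured (the 13 members and 25 of the lists below), 9 had numbers from 1200 to 1399, 2 of them members. Without Acp2 and Ppt1, which were chosen on this contrast, the other 7 had a median difference of 0.81, against 0.89 for the 184 probes of that stretch outside these lists and 0.11 for the 29 lysosomal genes elsewhere. The 29 include Ctsd, Ctsl and Ctsb, with numbers from 1000 to 1199, where 84% of probes were above 0 and the median was 0.56. A shift of such a stretch and a change of lysosomal genes within it cannot be told apart.

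**Figure D2:**
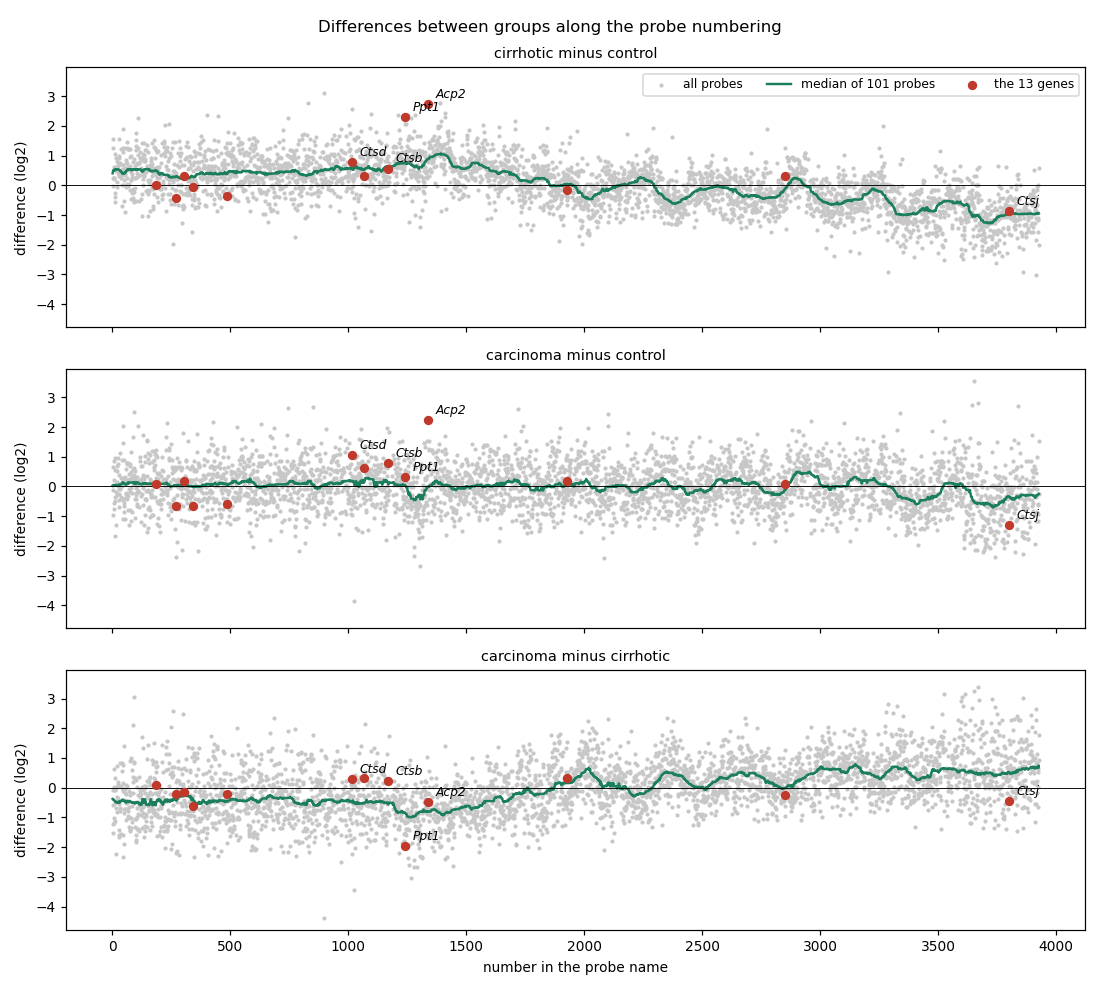
Difference between groups (log2, vertical axis) of every probe against the number in its name (horizontal axis), for the 3 comparisons, with the median of neighbouring probes as a line and the 13 genes in red. In cirrhotic against control liver the line is above 0 around Ppt1 and Acp2 and well below 0 around Ctsj.

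Ctsd and Ctse are the aspartic proteases of the group. Ctsd, the main aspartic protease of lysosomes, had log2 ratios of 1.43, -0.36, 0.21, 1.48 and -0.28 in cirrhotic samples 1 to 5, against 0.035, -0.053, -0.18, -0.38 and -0.87 in controls 1 to 5. Cirrhotic 1, 3 and 4 were above every control, and cirrhotic 2 and 5 lay within the control range. The difference was 0.78 (-0.35 to 1.92, limma adjusted p = 0.628), and 0.28 with the running median removed. Ctse, a protease of endosomes best known from stomach and immune cells, had 0.31, -0.85, 1.08, -1.18 and 0.68 in cirrhotic samples 1 to 5, against 2.33, -1.02, 2.23, -0.0020 and -1.39 in controls 1 to 5. Controls 1 and 3 were above every cirrhotic sample, and the difference was -0.42 (-1.82 to 0.99).

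Among the cysteine proteases, Ctsb, Ctsc, Ctsh and Ctsz trim the ends of peptides, Ctsb cutting within chains as well. Ctsb had 0.38, -0.63, 0.38, 0.45 and -0.67 in cirrhotic samples 1 to 5, against -0.79, 0.018, -0.33, -1.17 and -0.63 in controls 1 to 5. It was above every control in 3 cirrhotic samples and within the control range in cirrhotic 2 and 5, as Ctsd was. The difference was 0.56 (-0.40 to 1.52), against 0.075 with the running median removed. Ctsc, which activates the granule proteases of leukocytes, had 1.11, 0.28, -0.093, -0.74 and 0.31 in cirrhotic samples, against -0.13, -0.23, -0.19, -0.31 and 0.12 in controls. It differed by 0.32 (-0.63 to 1.28), and its spread was wider in cirrhotic than in control liver (SD 0.67 and 0.16). Ctsh, an aminopeptidase, had -0.62, 0.72, -0.9996, 0.23 and -0.041 in cirrhotic samples, against 0.11, -0.81, 0.89, -0.0020 and 0.95 in controls, and differed by -0.37 (-1.41 to 0.68). Ctsz, a carboxypeptidase, had -0.53, -0.16, 0.52, -0.23 and -0.18 in cirrhotic samples, against 0.16, 0.37, -0.34, 0.47 and -0.49 in controls, and differed by -0.15 (-1.03 to 0.72). For Ctsh and Ctsz the groups lay over each other, with 1 cirrhotic sample below every control in each and, for Ctsz, 1 above every control. For Ctsh, 2 controls were above every cirrhotic sample.

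Ctsl, Ctss and Ctsk cut within protein chains, Ctss mainly in antigen-presenting cells and Ctsk best known from the osteoclast. Ctsl had 0.86, 0.14, -1.32, 0.14 and -0.32 in cirrhotic samples, against -0.88, 0.17, -1.23, -0.0020 and -0.070 in controls. It differed by 0.30 (-0.80 to 1.41) and had the opposite sign, -0.20, with the running median removed. Without cirrhotic 1, whose Ctsl value was 0.86, its difference was 0.061. Ctss had 0.26, 1.58, -0.90, -0.012 and 0.92 in cirrhotic samples, against 0.47, 0.92, -0.37, -0.25 and 1.43 in controls, and differed by -0.071 (-1.22 to 1.08). Ctsk had 0.26, -0.14, 0.021, 0.064 and -0.57 in cirrhotic samples, against -0.026, 0.31, -0.36, -0.23 and -0.10 in controls. It differed by 0.0067 (-0.86 to 0.87) and varied least of the 13 genes, over a range of 0.995 across all 15 samples. Acp2, at the other end, ranged over 5.45 and Ppt1 over 5.32. Ctsj and Ctsq are known from rodent placenta rather than liver. Ctsj had -1.44, 0.32, -0.093, -1.87 and 0.86 in cirrhotic samples, against 0.63, 1.14, 0.46, 1.79 and -1.88 in controls, and differed by -0.87 (-2.38 to 0.63), or by -0.030 with the running median removed. Ctsq had -0.80, 0.022, 0.80, -0.94 and 0.49 in cirrhotic samples, against -2.39, 0.57, -2.08, 0.60 and 1.33 in controls, with control 1 at the lowest deposited ratio. It differed by 0.31 (-1.32 to 1.94), and by 1.29 with the values as deposited.

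**Figure D3:**
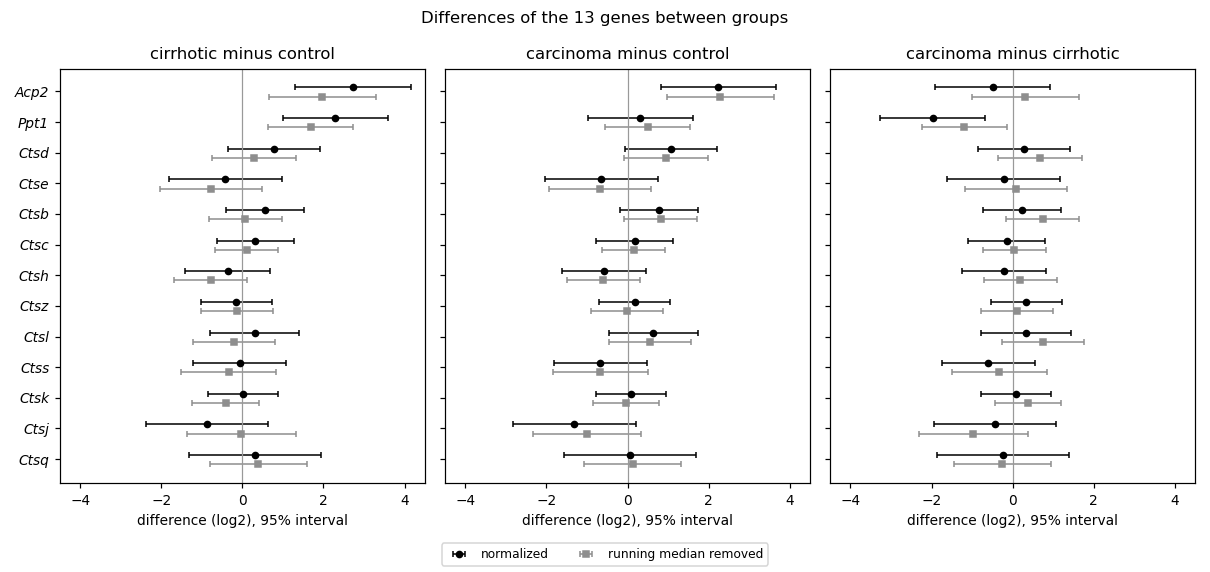
Differences between groups (log2, horizontal axis) with 95% intervals for the 13 genes in the 3 comparisons, after normalization (black circles) and after the running median was subtracted (grey squares). In cirrhotic against control liver only the intervals of Acp2 and Ppt1, both chosen on this contrast, lie above 0, at 1.31 to 4.16 and 1.0003 to 3.58.

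Sample by sample, 7 to 9 of the 13 genes were above 0 in each cirrhotic sample, against 3 to 7 in each control. These counts and the medians of the 13 genes include Acp2 and Ppt1, chosen on this contrast and above 0 in every cirrhotic sample. Of all probes, 45.7% to 50.8% were above 0 in each of the 15 samples. The median of the 13 genes in a sample averaged 0.21 ± 0.11 (SD, n = 5) over cirrhotic samples and -0.088 ± 0.14 (SD, n = 5) over controls, while the median of all probes stayed between -0.030 and 0.022 in all 15 samples. Over the 11 cathepsins alone, 5 to 7 were above 0 in each cirrhotic sample and 3 to 7 in each control, and the median averaged 0.049 ± 0.12 over cirrhotic samples and -0.045 ± 0.18 over controls (SD, n = 5 each). The median difference of 0.30 over the 13 genes was 0.031 without control 3, 0.050 without control 1, 0.061 without cirrhotic 1 and 0.18 without cirrhotic 5. After subtraction of the running median it was -0.030, and 6 of 13 genes were above 0, against 50% of all probes.

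**Figure D4:**
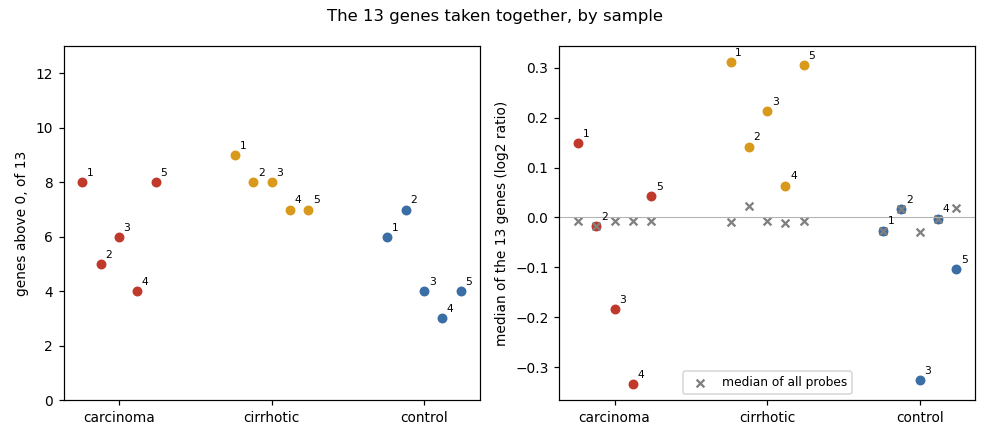
Number of the 13 genes above 0 (left) and their median log2 ratio (right, grey crosses for the median of all probes) in each carcinoma, cirrhotic and control sample, numbered by replicate. Cirrhotic samples hold 7 to 9 genes above 0, carcinomas 4 to 8 and controls 3 to 7. The 13 genes include Acp2 and Ppt1, which were chosen on the contrast of cirrhotic with control liver.

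Of the wider lysosomal gene lists, 25 genes outside the members had a probe, and none passed the adjusted threshold between cirrhotic and control liver. Of these, 17 were above 0, with a median of 0.69, and 6 higher and 3 lower had an unadjusted p under 0.05 (4.02% and 5.62% of all probes). With the running median removed, 16 were above 0 and the median was 0.29. Membrane proteins and transporters stood furthest above 0 in median, with 7 of 8 above 0 and a median of 1.18, or 0.68 with the running median removed. Scarb2, the receptor that carries glucocerebrosidase to the lysosome, differed by 1.73 (0.75 to 2.72), without overlap of the groups, and Lamp2, a major membrane glycoprotein, by 1.54 (0.12 to 2.95). With the running median removed, Scarb2 differed by 0.93 and Lamp2 by 0.79, and 0 genes of the list had groups without overlap. Cd63, a tetraspanin of late endosomes and lysosomes, differed by -2.37 (-3.85 to -0.89), and Slc11a2, an iron transporter, by 0.67 (-0.41 to 1.75). Their limma adjusted p ranged from 0.307 to 0.662.

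Among other lysosomal hydrolases and activators, 3 of 7 were above 0. Gusb, the beta-glucuronidase, differed by 2.36 (0.63 to 4.08) and Psap, the precursor of the saposins, by 0.81 (-0.82 to 2.43), while Dnase2 differed by -1.02 (-2.49 to 0.45) and Hyal2 by -0.61 (-2.09 to 0.87). All 4 proton pump subunits were above 0, from 0.30 for Atp6v1b2 to 0.96 for Atp6v1f, with Atp6ap1 at 0.77. With the running median removed 3 of 4 were, and Atp6v0a1 stood at -0.23 in place of 0.73. The sorting genes were 3 above and 3 below 0: Igf2r, the large mannose 6-phosphate receptor, differed by 1.24 (0.23 to 2.26) and the clathrin light chain gene Clta by 0.69 (-0.58 to 1.97), and Ap3m1, of an adaptor complex to the lysosome, by -1.56 (-2.71 to -0.40) and the clathrin heavy chain gene Cltc by -1.33 (-2.38 to -0.29). Once the running median was removed, Ap3m1 differed by -0.57, Cltc by -0.19, Clta by 0.19, Igf2r by 0.90, Psap by 0.19, Gusb by 1.92, Dnase2 by -0.72 and Hyal2 by -0.36.

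The list of cystatins and other protease inhibitors had 3 of 7 above 0 in cirrhotic against control liver and a median of -0.56, or 0.16 with the running median removed. Fetub, a liver-secreted member of the cystatin family, differed by -1.90 (-3.62 to -0.19) and A2m, the broad protease trap of rat plasma, by -0.98 (-2.23 to 0.27). Serpina3n differed by 0.64 (-0.70 to 1.98) and Cstb, the intracellular cystatin B, by 0.45 (-1.14 to 2.04). Kupffer cell and macrophage markers, cells rich in several of these enzymes, had 7 of 20 genes on the array, 4 of them above 0, with a median difference of 0.039. Their mean log2 ratio per sample ran from -1.58 to 0.42 in cirrhotic and from -1.64 to 0.11 in control liver. Hepatocyte markers had 5 of 11 above 0, with a median of -0.0036. The part of either cell type in the values of Acp2 and Ppt1 was not tested.

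By the mean absolute difference of log2 ratio over the 15 samples, the genes most like Acp2 among 3427 named probes were Add2 (0.48), Abat (0.74), Axin1 (0.76) and Rps29 (0.77), where the median probe was at 1.54. Those most like Ppt1 were Abcc2 (0.50), Hk2 (0.52), Gak (0.54) and Cacnb1 (0.55), with the median probe at 1.40. Acp2 and Ppt1 lay 1.496 apart from each other, close to the median probe in both cases. Of the other members, the nearest to Acp2 was Ctsd at 1.04 and the nearest to Ppt1 was Ctsc at 0.97. By probe number, Add2 (1411), Abcc2 (1261), Hk2 (1422) and Cacnb1 (1158) lie near Acp2 and Ppt1. Abat (955), Axin1 (1841), Rps29 (549) and Gak (265) lie further off. With the running median removed, Add2 was again nearest to Acp2 (0.47), and Hk2 (0.47), Abcc2 (0.48) and Cacnb1 (0.53) were nearest to Ppt1.

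Carcinoma was next compared with control liver. The controls are those of the cirrhotic comparison, so low Acp2 and Ppt1 values in controls enter both. Acp2 lay higher in the tumour, and among the cathepsins Ctsd, Ctsb and Ctsl had the differences furthest above 0, while Ppt1 in the tumour stood near control. No member passed an adjusted p of 0.05 in limma (0% of all probes called), 1 had an unadjusted p under 0.05, Acp2, which was higher (3.65% of all probes higher, 3.75% lower). No member's groups failed to overlap, against 1.06% of all probes with carcinoma higher and 0.825% with carcinoma lower. The 13 genes had 9 above 0, against 50.1% of all probes, with a median of 0.17 against 0.0029 over all probes. That median was 0.087 without control 3, and 0.13 with the running median removed, when 7 of 13 genes were above 0 (49.8% of all probes). These counts include Acp2 and Ppt1, listed for a contrast with the same controls. The 11 cathepsins alone had 7 above 0 and a median of 0.096, or 5 above 0 and a median of -0.013 with the running median removed.

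Acp2 had log2 ratios of 2.14, -0.64, -0.86, -0.020 and 1.66 in carcinomas 1 to 5, against the control values given above, of which 3 were at or under -2.39. Carcinomas 1 and 5 were above every control, and the other 3 lay within the range of controls 4 and 5 or just below it. The mean was 0.46 ± 1.36 (SD, n = 5) over carcinomas and -1.79 ± 1.42 (SD, n = 5) over controls. These differed by 2.24 (0.82 to 3.67), with an adjusted p of 0.485 in limma, and by 4.66 with the values as deposited. Its 100 neighbours in the numbering had a median of -0.016, and with the running median removed the difference was 2.29 (0.97 to 3.60). Ppt1 had -0.24, -0.018, -1.83, -1.76 and 0.33 in carcinomas 1 to 5, and carcinoma 5 alone was above every control. Its difference was 0.32 (-0.97 to 1.61), and without control 4, the lowest sample, it was -0.15.

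Ctsd had 1.59, -0.018, 1.07, 0.045 and 1.18 in carcinomas 1 to 5, so 4 of 5 tumours were above every control. Carcinoma 4, at 0.045, was barely above control 1, at 0.035. In the deposited ratios they stood at 0.991 and 1.05, so carcinoma 4 was not above every control there. The mean was 0.77 ± 0.72 (SD, n = 5) over carcinomas and -0.29 ± 0.36 (SD, n = 5) over controls. These differed by 1.06 (-0.074 to 2.20), with an adjusted p of 0.673 in limma. Ctsb had 0.48, 0.55, 0.25, -0.33 and 0.085 in carcinomas 1 to 5, again with 4 of 5 above every control, and differed by 0.78 (-0.18 to 1.75, limma adjusted p = 0.723). Ctsl had 1.20, -0.47, 0.25, -0.79 and 0.99 in carcinomas 1 to 5, with carcinomas 1, 3 and 5 above every control, and differed by 0.64 (-0.47 to 1.74). The neighbours of these 3 probes had medians from 0.074 to 0.17, where those in cirrhotic against control liver were 0.53 to 0.64, and with the running median removed the differences were 0.95 for Ctsd, 0.81 for Ctsb and 0.55 for Ctsl. Leaving out each sample in turn gave 0.83 to 1.28 for Ctsd, 0.65 to 0.93 for Ctsb and 0.38 (without carcinoma 1) to 0.90 for Ctsl. The unadjusted p was 0.0656 for Ctsd, 0.105 for Ctsb and 0.245 for Ctsl, so none passed either threshold.

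The other cathepsins lay on both sides of 0 in the tumour. Ctsj had -0.66, 0.043, -2.76, -0.16 and -0.86 in carcinomas 1 to 5 and differed by -1.31 (-2.81 to 0.20), with 4 of 5 controls above every carcinoma and control 5 low at -1.88. Ctss had -0.33, -0.17, -1.01, 1.10 and -0.75 in carcinomas and differed by -0.67 (-1.82 to 0.48). Ctse had 0.71, -0.10, -0.57, -1.15 and 0.034 and differed by -0.64 (-2.05 to 0.76). For all 3, at least 1 control was above every carcinoma. Ctsh had 0.10, -1.35, -0.18, -0.35 and -0.0047 and differed by -0.58 (-1.63 to 0.46). Ctsz had 0.15, 0.64, 0.36, 0.068 and -0.14, Ctsc 1.004, 0.21, -0.68, -0.46 and 0.043, Ctsk -0.074, 0.026, 0.42, -0.42 and 0.11 and Ctsq -1.96, -0.74, 0.76, 1.80 and -1.49 in carcinomas 1 to 5. Those 4 genes differed by 0.068 to 0.18, and in each the groups overlapped. With the values as deposited Ctsq differed by 1.16. Kupffer cell and macrophage markers had 5 of 7 above 0, with a median of 0.56, and their mean per sample ran from -0.10 to 0.77 in carcinoma and from -1.64 to 0.11 in control liver. Hepatocyte markers had 9 of 11 above 0, with a median of 0.50, or 0.98 with the running median removed, and their mean per sample ran from -0.44 to 0.89 in carcinoma and from -1.20 to 0.28 in control liver. Whether either cell type has a part in the values of Ctsd and Ctsb was not tested.

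Of the 25 other lysosomal genes, 18 were above 0 in carcinoma against control liver, with a median of 0.26, and none passed. With the running median removed, 17 were above 0 and the median was 0.45. Among those already named, Atp6v1f had the highest difference, 1.66 (0.32 to 2.997), followed by Lamp2 with 1.22 (-0.19 to 2.64) and Gusb with 1.07 (-0.66 to 2.79). Scarb2 differed by 0.0044 (-0.98 to 0.99). The inhibitors had 5 of 7 above 0 and a median of 0.64, with Serpina3n at 1.20 (-0.14 to 2.54).

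Carcinoma was last compared with noncancerous cirrhotic liver, both from rats on the choline-deficient diet, without pairing of samples. Ppt1 was lower in the tumour than in cirrhotic liver, and the other 12 genes had intervals that spanned 0. Since Ppt1 was listed for its high values in these same cirrhotic samples, its difference here rests in part on that choice. No member passed an adjusted p of 0.05 in limma (0% of all probes called), Ppt1 was the 1 member with an unadjusted p under 0.05 (6.28% of all probes were lower at that limit and 6.95% higher). No member's groups failed to overlap, against 1.25% of all probes with carcinoma higher and 1.46% with carcinoma lower. The median over the 13 genes was -0.22, with 5 above 0, against 49.3% of all probes above 0 and a median of -0.021. The members' median ran from -0.32 without carcinoma 1 to -0.031 without carcinoma 4 and -0.013 without carcinoma 3. It was -0.14 without cirrhotic 1 and -0.10 without cirrhotic 5. After subtraction of the running median it was 0.11, with 9 of 13 genes above 0 (49.5% of all probes).

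Ppt1 averaged -0.70 ± 1.02 (SD, n = 5) over carcinomas and 1.27 ± 0.83 (SD, n = 5) over cirrhotic samples. These differed by -1.97 (-3.26 to -0.68), with an adjusted p of 0.234 in limma. In 4 of 5 tumours it was below every cirrhotic sample, and carcinoma 5, at 0.33, was above cirrhotic 4, at 0.15. Among its 100 neighbours, 7% had a difference above 0, with a median of -0.83, and 7% lay further below 0 than Ppt1. With the running median removed the difference was -1.19 (-2.24 to -0.15). Acp2 averaged 0.46 ± 1.36 (SD, n = 5) over carcinomas and 0.95 ± 0.77 (SD, n = 5) over cirrhotic samples. These differed by -0.49 (-1.92 to 0.93), with the opposite sign, 0.31, once the running median was removed. In 3 of 5 tumours Acp2 was below every cirrhotic sample, while carcinomas 1 and 5, at 2.14 and 1.66, lay within the cirrhotic range. By group means alone, the carcinomas were nearer to cirrhotic than to control liver for Acp2, and nearer to control than to cirrhotic liver for Ppt1. Whether the genes differ in this was not tested.

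The 11 cathepsins differed between tumour and cirrhotic liver by -0.60 (-1.75 to 0.55) for Ctss up to 0.33 for Ctsl (-0.77 to 1.44) and Ctsz (-0.54 to 1.21). In Ctsz, 4 of 5 cirrhotic samples were below every carcinoma. Ctsd differed by 0.28 (-0.86 to 1.41) and Ctsb by 0.22 (-0.74 to 1.19), or by 0.67 and 0.74 with the running median removed. With 1 sample left out, the difference ran from 0.062 (without cirrhotic 2) to 0.53 (without cirrhotic 4) for Ctsd. It ran from 0.061 (without cirrhotic 5) to 0.36 (without carcinoma 4) for Ctsb and from 0.028 (without cirrhotic 3) to 0.59 (without carcinoma 4) for Ctsl. Apart from Ctsk (-0.77 to 0.95), each cathepsin's interval reached beyond 1 on the log2 scale in at least 1 direction, so these arrays do not show that tumour and cirrhotic liver were alike. Of the other lysosomal genes, 9 of 25 were above 0, with a median of -0.15, against 13 of 25 and a median of 0.077 with the running median removed. Scarb2 differed by -1.73 (-2.71 to -0.74, limma adjusted p = 0.224), or -0.95 with the running median removed, and Cd63 by 1.85 (0.37 to 3.33), or 1.36. Among the inhibitors, 6 of 7 were above 0 with a median of 0.94, or 5 of 7 and 0.41 with the running median removed. A2m differed by 1.64 (0.39 to 2.89) and Fetub by 1.505 (-0.21 to 3.22).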

How the data were processed

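Per the series' value table, the authors deposited a linear ratio for each of 3757 probes on 15 arrays. Every probe's median over the arrays was 1 within 6e-08, which a division by that median gives. The sources used here state no array type, dyes, background correction or software, and 0 columns were left aside. With 5 arrays in a group, their number limits precision. The trimmed array means differed up to 1.5-fold, so ratios were quantile-normalized and put on the log2 scale, with no filter or pseudocount. Group was the only term of a linear model of all 15 arrays (limma 3.58.1, lmFit, then eBayes with a trend of variance on mean, R 4.3.3, 12 residual degrees of freedom). P-values are two-sided and adjusted by Benjamini-Hochberg over all 3757 probes, with a threshold of 0.05, and intervals are 95% moderated intervals. The fit was tested on simulated data.

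Genes were named by the platform annotation (3440 probes with 1 symbol, 4 with several, 313 with none), and all 13 members matched RefSeq by gene identifier. The text names every member, the outermost 2 genes at each end of each lysosomal list and the 4 genes most like Acp2 and Ppt1. Members and lists were chosen with earlier results of these data known. Later mentions of list genes were picked after their values were seen. Neighbours are the 50 probes on each side in the table, and the running median spans as many plus the probe itself. Alternatives were other scalings, a pseudocount, a floor, a filter, that running median, other variance models, a replicate block and samples left out. The floor, a normalized ratio of 0.1, lay below every member value, so it changed no member's difference and did not test the low Acp2 values. Figures were drawn with matplotlib 3.10.9.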

Additional observations from a re-analysis of the deposited data

How the results depend on the processing

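Under every alternative run, 0 members passed the adjusted threshold in each of the 3 comparisons. Between samples with the same number in different groups, deviations from group means correlated from -0.34 to 0.39, and by 0.32, 0.19 and 0.39 for number 1. Samples with different numbers were not compared in this way, so whether the numbers pair samples was not settled. With the replicate block 0 members passed. The same numbers occur in every group, so the block can alter p-values and intervals but no difference. Those between cirrhotic and control liver therefore stayed at 2.73 for Acp2 and 2.29 for Ppt1, which is no test of them. The number of members without overlap between cirrhotic and control liver was 2, against 1 with values as deposited, 1 with arrays scaled to the same median (Acp2 in both), 1 with only probes that never reached the lowest ratio (Ppt1, as Acp2 is left out) and 0 with the running median along the numbering removed. In carcinoma against control liver it was 0 higher and 0 lower, and 1 higher (Ctsd) without control 1 and cirrhotic 1 together. Leaving out each sample gave 0 to 1 higher and 0 to 1 lower in both comparisons of carcinoma.

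The median over members in cirrhotic against control liver was 0.0067 with the filter, -0.030 with the running median removed, -0.016 without control 1 and cirrhotic 1 together, and 0.031 to 0.38 with each sample left out. In carcinoma against cirrhotic liver it was 0.11 with the running median removed and -0.32 to -0.013 with each sample left out.

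No member's difference passed, and the sign of several turned. With the running median removed, Ctsk was at -0.41 and Ctsl at -0.20 in cirrhotic against control liver, Ctsk at -0.037 and Ctsz at -0.013 in carcinoma against control, and Ctse at 0.086, Ctsc at 0.042, Ctsh at 0.19 and Acp2 at 0.31 in carcinoma against cirrhotic. With array weights Ctsk was at -0.081 and Ctss at 0.16 in cirrhotic against control. Without control 1 and cirrhotic 1 together, Ctsk was at -0.057, Ctsl at -0.054 and Ctsq at -0.035 there, Ctsq at -0.41 in carcinoma against control and Ctsc at 0.082 in carcinoma against cirrhotic. With each sample left out, the ranges that crossed 0 in cirrhotic against control were -0.073 to 0.13 for Ctsk, -0.88 to 0.050 for Ctse, -0.38 to 0.25 for Ctss and -0.21 to 0.73 for Ctsq. In carcinoma against control they were -0.0073 to 0.20 for Ctsk, -0.073 to 0.35 for Ctsc, -0.15 to 0.60 for Ppt1 and -0.46 to 0.50 for Ctsq. In carcinoma against cirrhotic they were -0.035 to 0.20 for Ctsk, -0.53 to 0.047 for Ctse, -0.38 to 0.082 for Ctsc, -0.45 to 0.034 for Ctsh, -0.78 to 0.15 for Ctsq and -0.80 to 0.038 for Ctsj. Apart from the changed sets of samples and probes, the cause was not tested.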

Other observations

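The treatment of the lowest ratios reached into the values of Acp2. In the deposited table Acp2 stood at the limit of 0.01 in controls 1 and 3 and at 0.0168 in control 2. After quantile normalization the order turned round: control 1 came to -2.39 and control 2 to -2.79 on the log2 scale, because the 229 values of control 1 that share the limit take a common, higher value. Acp2 is therefore low in 3 of 5 controls on either scale, but those 3 samples have no reliable order among themselves.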
